A study of Mus musculus with 8 samples.

Results

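Interstitial leukocytes from the lungs of Rag1-/- mice depleted of natural killer (NK) cells, called RagKO here, were compared between silica and saline instillation over all measured genes. The arrays were chosen by their titles, which gave 2 RagKO silica and 2 RagKO saline arrays, 4 of the 8 arrays in the series. RagKO silica mice were Rag1-/- mice that received 1 mg of crystalline silica in 25 µl of saline through the nose once a week, for 4 doses. RagKO saline mice were Rag1-/- mice given 25 µl of saline on the same schedule. Both RagKO groups also received the antibody against NK1.1, at 300 µg per injection, before the first dose and weekly after it. The WT silica and WT saline groups, with 2 arrays each, were wild-type C57Bl/6 mice given the same doses, with no antibody named for them. RagKO and WT therefore differ in genotype and antibody together, and these cannot be told apart. All mice were 6 to 8 weeks old. The lungs were minced, digested with collagenase and separated on a Percoll density gradient, with no cell sort. Per the labels these are biological replicates, and whether an array is 1 mouse or a pool is not said. The title asks how the silica response compares between the 2 kinds of mice.

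Crystalline silica is a mineral dust that is taken up by lung macrophages through scavenger receptors and damages the lysosomes that hold it. The macrophages then release interleukin-1, tumour necrosis factor and chemokines that draw in neutrophils and monocytes, and lasting exposure can lead to the scarring called silicosis. Rag1 is needed to rearrange antigen receptor genes, so Rag1-/- mice make no mature T or B cells, and what remains in their lungs is mainly myeloid cells, innate lymphoid cells and carried-over tissue cells.

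Each value is a log2 ratio of leukocyte RNA to a universal mouse reference RNA hybridised on the same array. It can be compared between arrays for a gene, but not between genes, and levels were not summed over genes for the same reason. The log base of the deposited ratios was inferred from their values. A test covered 11597 genes, and a gene was called when its adjusted p was under 0.05. Differences are silica minus saline, with the standard error (SE) of the fit. With 2 arrays a group, the p-values rest on a spread pooled over genes and all 4 groups. The samples are bulk RNA, so fewer cells of a type and less RNA per cell cannot be told apart.

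The arrays carried values for between 15661 and 16119 of 16251 probes. Rag1 itself was not analysed here. Ms4a1, which encodes the B cell marker CD20, had log2 ratios of -2.76 and -2.74 on the RagKO silica and -2.14 and -2.12 on the RagKO saline arrays, against 3.67 and 3.55 on the WT silica and 4.51 and 4.64 on the WT saline arrays. All 4 RagKO arrays lay below all 4 WT arrays. Klrb1c, which encodes the NK1.1 antigen itself, was at 1.31 and 0.75 on the RagKO silica and 1.87 and 2.01 on the RagKO saline arrays, against 3.62 and 3.57 on the WT silica and 2.79 and 2.80 on the WT saline arrays. Ptprc, which encodes the leukocyte marker CD45, was between 1.50 and 1.71 on the 4 RagKO arrays. RagKO silica array 2 stood apart from the other RagKO arrays in sex-linked transcripts. On its 2 probes Xist was at 2.22 and 1.52 there, against -2.71 and -1.03 on silica array 1, and the Y-linked Eif2s3y was at -2.22, against 2.42. On the RagKO saline arrays Xist lay between -2.64 and -0.71 and Eif2s3y at 2.90 and 2.60. These transcripts also differed among the WT arrays. Eif2s3y was at 2.32 and 2.27 in WT saline and 0.34 and 1.05 in WT silica, and Xist lay between -0.24 and 0.82. The part of sex in the comparison with WT was not tested. The labels give no sex, and several values and counts are therefore also given without silica array 2. The probe for 28S ribosomal RNA (Rn28s1) also moved with the groups, with 0.86 and 0.59 on the silica and 2.43 and 2.08 on the saline arrays. Its part in the results was not tested. Ptprc and Rn28s1 were chosen after the values were seen.

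Silica changed 3795 of 11597 genes in RagKO leukocytes, 32.7% of those tested. Of these, 1950 (16.8%) were higher and 1845 (15.9%) were lower, and 515 (4.44%) differed by at least 2-fold, 360 of them (3.1%) higher and 155 (1.34%) lower. The median difference over all genes was -0.03, and 5% to 95% of genes lay between -0.65 and 0.81. The silica and saline arrays did not overlap for any of the 3795 called genes, and they did not overlap for 67.1% of all genes either. Without silica array 2 the number of calls was 3161, and 2800 of the 3795 calls were among them, all in the same direction. The count was most sensitive to saline array 1 and silica array 1, at 2380 without the one and 2393 without the other.

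The 12 largest rises included genes of macrophage activation, an acute-phase protein, proteases, an ion exchanger and chemokines. Fbp1, the gluconeogenic enzyme fructose-1,6-bisphosphatase, had log2 ratios of 3.56 and 5.02 on the silica arrays, against -0.19 and -0.18 on the saline arrays. Both silica arrays were far above the saline arrays, and silica array 2 was the higher of them. The difference was 4.47 ± 0.36, or 22.1-fold (adjusted p = 4.48e-05), and it was 3.74 without silica array 2 and 5.20 without silica array 1. Saa3, an acute-phase serum amyloid made by macrophages, was at 1.69 and 2.30 after silica and -1.87 and -1.65 after saline, a rise of 13.6-fold (adjusted p = 9.65e-05). Mmp12, the macrophage elastase, was at 3.95 and 4.07 on the silica and 0.93 and 0.59 on the saline arrays, and rose 9.51-fold (adjusted p = 1.26e-05). In both genes each silica array lay well above each saline array.

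**Figure D1:**
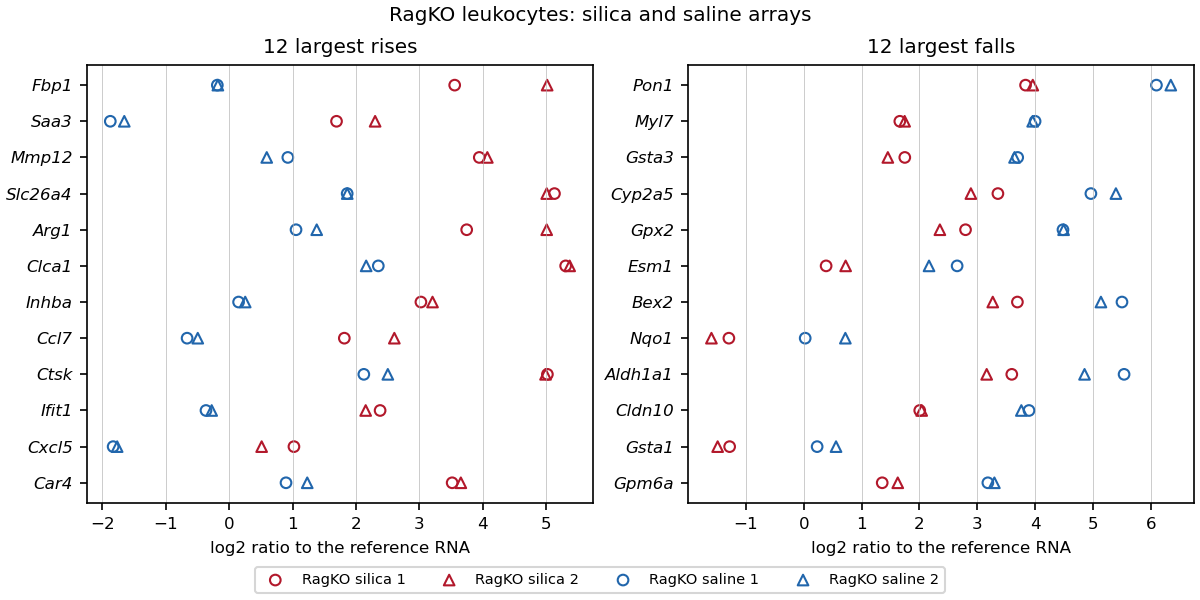
Log2 ratio to the reference RNA of the 12 genes with the largest rises (left panel) and the 12 with the largest falls (right panel), with 1 symbol for each RagKO array, red for silica and blue for saline. The silica and saline arrays do not overlap for any of the 24 genes, and Fbp1 and Arg1 have the widest spread between the 2 silica arrays.

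Slc26a4, an anion exchanger of airway epithelium, was at 5.13 and 5.01 on the silica and 1.86 and 1.86 on the saline arrays (9.24-fold, adjusted p = 1.38e-05). Clca1, a secreted protein of mucus-producing goblet cells, was at 5.31 and 5.37 on the silica and 2.35 and 2.16 on the saline arrays (8.47-fold, adjusted p = 9.14e-07). The arrays of a group lay close together in both genes, and the silica arrays were far above the saline arrays. Inhba, the activin A subunit, was at 3.03 and 3.21 in silica and 0.15 and 0.25 in saline leukocytes (7.54-fold, adjusted p = 1.65e-05). Ctsk, the collagen-degrading cathepsin K, was at 5.02 and 4.99 on the silica and 2.12 and 2.50 on the saline arrays (6.46-fold, adjusted p = 4.16e-06). Car4, a membrane carbonic anhydrase, was at 3.52 and 3.65 on silica and 0.90 and 1.23 on saline arrays (5.74-fold, adjusted p = 4.21e-05).

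Genes of macrophage activation of both the alternative and the classical kind were higher. Of 23 measured genes of alternative activation, 14 rose and 1 fell, with a median difference of 0.74, and without silica array 2 the counts were 14 and 0. Arg1, the arginase that competes with nitric oxide synthase for arginine, was at 3.75 and 5.01 on the silica and 1.06 and 1.38 on the saline arrays, a rise of 8.93-fold (adjusted p = 0.000131). Its log2 difference of 3.16 was 2.53 without silica array 2 and 3.79 without silica array 1. The chitinase-like secreted proteins Chil3 and Chil4 rose by 1.18 ± 0.17 and 1.23 ± 0.12. For Chil4 the ratios were 7.16 and 7.32 after silica and 5.99 and 6.04 after saline. Egr2, a transcription factor induced by interleukin-4, was at 1.74 and 1.84 on the silica and -0.11 and 0.03 on the saline arrays and rose 3.56-fold. Il4ra, the receptor chain for interleukin-4 and interleukin-13, rose 3.17-fold, and the chemokine Ccl17 rose 2.47-fold. The eosinophil chemokine Ccl24 was at -0.75 and 1.53 on the silica and -1.80 and -1.75 on the saline arrays (adjusted p = 0.014). Both silica arrays were above the saline arrays, and the difference of 2.16 was 1.02 without silica array 2 and 3.30 without silica array 1. The Ccl24 call was lost with robust moderation (adjusted p = 0.114) and without saline array 1 or saline array 2. The mannose receptor Mrc1 was at 4.84 and 5.28 in silica and 4.74 and 4.77 in saline leukocytes and was not called.

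Of 13 genes of classical activation, 9 rose and 1 fell, with a median of 0.94 (9 and 1 without silica array 2). Irf5, a transcription factor of inflammatory macrophages, was at 1.94 and 1.40 on silica and -0.06 and -0.07 on saline arrays and rose 3.32-fold. Socs3, an inhibitor of cytokine signalling, rose 2.97-fold, and Tnf, which encodes tumour necrosis factor, rose 2.13-fold, with 3.75 and 3.47 in silica and 2.49 and 2.55 in saline leukocytes. Il6 had 4.06 and 3.99 on the silica and 3.91 and 3.88 on the saline arrays, and Acod1, the itaconate-producing enzyme, had 4.45 and 4.65 on the silica and 4.69 and 4.66 on the saline arrays, with neither called. The 2 probes of Acod1 disagreed in sign.

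Uptake receptors and lysosomal genes rose together. Of 23 scavenger and phagocytic receptors, 15 rose and 1 fell (14 and 1 without silica array 2). Marco, the scavenger receptor by which macrophages bind silica, was at 6.38 and 6.39 on the silica and 4.09 and 4.11 on the saline arrays, a rise of 4.87-fold (adjusted p = 2.6e-06). The arrays of a group nearly coincided, so the difference of 2.28 ± 0.10 far exceeded the spread. Msr1, the class A scavenger receptor, was at 2.03 and 2.19 on the silica and 0.85 and 0.85 on the saline arrays and rose 2.39-fold. Lgals3, the galectin that marks damaged lysosomes, rose 3.99-fold, and the inhibitory Fc receptor Fcgr2b rose 2.79-fold. Cd36, a receptor for oxidised lipids, was the exception, with 3.07 and 3.31 in silica and 4.10 and 4.21 in saline leukocytes, 1.95-fold lower.

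Of 35 lysosomal genes, 23 rose and 0 fell, with a median of 0.68 (20 and 0 without silica array 2). The proteases led them. Ctss, which processes antigen for class II presentation, was at 4.93 and 5.10 on the silica and 2.87 and 3.15 on the saline arrays and rose 4.01-fold. Lgmn, an asparaginyl protease, was at 2.22 and 2.03 on the silica and 0.04 and 0.34 on the saline arrays and rose 3.83-fold. The carboxypeptidase Ctsz rose 2.78-fold and Psap, the precursor of the saposins that assist lipid breakdown, 2.73-fold. Ctsa had 0.35 and 0.27 in silica and 0.12 and -0.14 in saline leukocytes and was not called. In lipid handling, 15 of 29 genes rose and 4 fell. Ch25h, which makes 25-hydroxycholesterol, was at 3.60 and 4.31 on the silica and 1.68 and 1.88 on the saline arrays and rose 4.54-fold. Lipa, the lysosomal acid lipase, rose 2.80-fold and the cholesterol exporter Abcg1 2.34-fold.

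Of 20 identity genes of lung macrophages, 14 rose and 1 fell (11 and 1 without silica array 2). The list's per-array medians were 2.72 and 2.92 on the silica arrays, against 1.85 and 1.75 on the saline arrays. Siglecf, a surface lectin of alveolar macrophages and eosinophils, was at 2.48 and 3.01 in silica and 2.03 and 2.17 in saline leukocytes. It rose 1.56-fold, a call lost after quantile normalization (adjusted p = 0.0711) and without saline array 1 or silica array 2. Plet1, a surface protein, was at 6.08 and 6.15 on the silica and 5.27 and 5.15 on the saline arrays and rose 1.87-fold. Monocyte markers moved less uniformly, with 4 of 13 higher and 1 lower. Ly6c2 of inflammatory monocytes was at 2.95 and 2.82 on silica and 1.59 and 1.93 on saline arrays and rose 2.18-fold, Spn of patrolling monocytes rose 1.85-fold, and Plac8 was at 5.00 and 4.90 on the silica and 4.62 and 4.70 on the saline arrays and not called.

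Interferon-stimulated genes had the highest median difference of the lists. These genes are switched on when type I or type II interferon activates STAT factors, which bind a short response element near the gene's start. Of 36 measured genes, 33 rose and 1 fell, with a median difference of 1.56, against -0.03 over all genes. The list's per-array medians were 2.10 and 1.81 on the silica arrays, against 0.36 and 0.26 on the saline arrays. Without silica array 2 the counts were 32 and 1. Of 20 genes induced by interferon-gamma, which overlap in part with the other lists, all 20 rose, and 19 did without silica array 2. The transcript of interferon-gamma itself, Ifng, was at 2.68 and 1.74 on the silica and 2.36 and 2.36 on the saline arrays and was not called. The silica arrays lay on either side of the saline arrays. Ifng was chosen after the values were seen.

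Ifit1, which binds foreign RNA caps, was at 2.38 and 2.15 on the silica and -0.36 and -0.27 on the saline arrays and rose 6.01-fold (adjusted p = 4.33e-05). Zbp1, a sensor of left-handed nucleic acid, was at 1.83 and 2.39 on the silica and 0.00 and -0.12 on the saline arrays and rose 4.50-fold. Isg15, the ubiquitin-like modifier, was at 2.68 and 2.70 in silica and 1.12 and 0.81 in saline leukocytes and rose 3.31-fold. In all 3 genes both silica arrays stood far above both saline arrays. Usp18, which removes Isg15 from proteins, rose 3.35-fold, and Lgals3bp, a secreted galectin ligand, 4.46-fold. Gbp5, a guanylate-binding protein that promotes inflammasome assembly, was at 4.11 and 4.12 on silica and 1.57 and 1.68 on saline arrays and rose 5.62-fold (adjusted p = 2.97e-06). The immunity-related GTPases Irgm1 and Iigp1 rose 2.89-fold and 2.33-fold. Eif2ak2, which encodes the RNA-activated kinase PKR, had 0.16 and 0.13 after silica and -0.13 and 0.06 after saline and was not called.

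**Figure D2:**
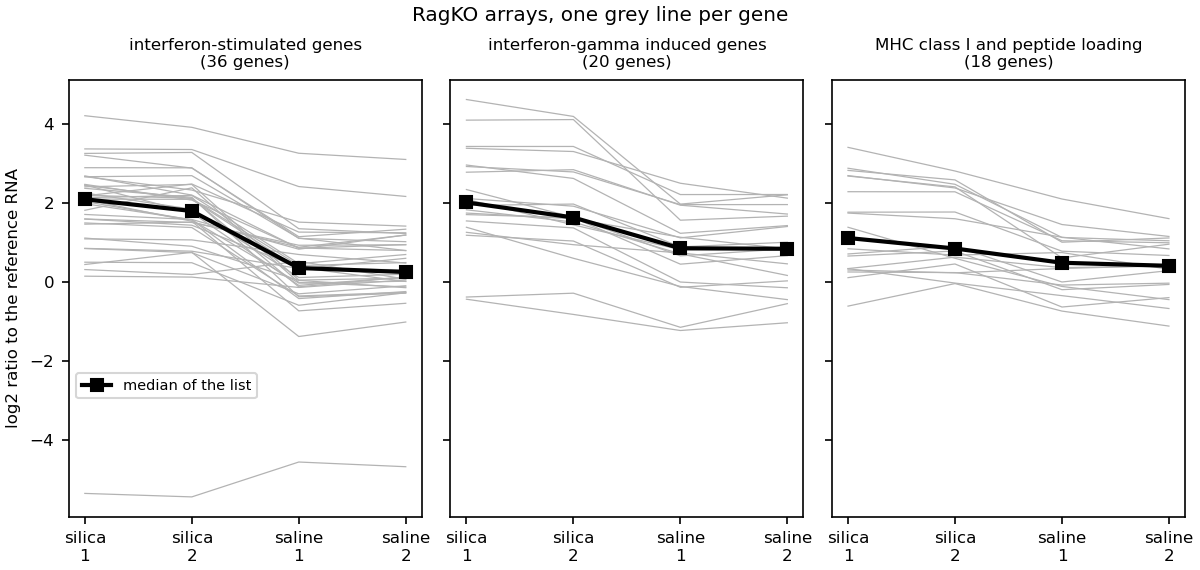
Log2 ratio to the reference RNA on the RagKO silica arrays (left in each panel) and RagKO saline arrays (right), with 1 grey line per gene and a black line for the list median, for 36 interferon-stimulated genes, 20 genes induced by interferon-gamma and 18 genes of MHC class I and peptide loading. The list medians are higher on both silica arrays than on both saline arrays in each panel.

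The promoters of these genes were searched for the core of the interferon-stimulated response element, because the list moved together. The window ran from 250 bases before to 50 bases after each gene's start in RefSeq (GRCm38.p6), and the motif was GAAA, any 2 bases, then GAAA, on either strand. It was present in 15 of 27 interferon-stimulated genes with a promoter sequence (55.6%) and in 9 of 15 of those induced by interferon-gamma (60.0%), against 358 of all 9347 tested genes with one (3.8%). It was also present in 38 of 283 genes called at least 2-fold higher (13.4%) and in 9 of 134 called at least 2-fold lower (6.7%). The windows below show it for the 6 interferon-stimulated genes with the largest rises among those with a match before the start. Every match that lies whole in a window is in capitals, overlapping matches run together, and each sequence is read 5′ to 3′ along the gene's strand.
Ifit1: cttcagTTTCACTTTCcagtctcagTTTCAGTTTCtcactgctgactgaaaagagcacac
Ifit3: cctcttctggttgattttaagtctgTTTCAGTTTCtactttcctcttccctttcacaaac
Oas1a: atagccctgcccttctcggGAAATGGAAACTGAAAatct
Bst2: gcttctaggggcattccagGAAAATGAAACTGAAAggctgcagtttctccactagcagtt
Isg15: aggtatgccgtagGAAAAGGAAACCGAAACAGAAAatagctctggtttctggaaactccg
Ifi207: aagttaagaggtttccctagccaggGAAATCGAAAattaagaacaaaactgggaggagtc
They lie at chr19:34640779-34640838 (plus strand, Ifit1), chr19:34583382-34583441 (plus strand, Ifit3), chr5:120907526-120907564 (minus strand, Oas1a), chr8:71537562-71537621 (minus strand, Bst2), chr4:156200850-156200909 (minus strand, Isg15) and chr1:173741816-173741875 (minus strand, Ifi207), all before the starts of these genes. Bst2, the tetherin that holds budding virus at the membrane, was at 0.45 and 0.76 on the silica and -1.37 and -1.00 on the saline arrays and rose 3.47-fold. The windows hold 3 matches in Isg15, 2 each in Ifit1, Oas1a and Bst2 and 1 each in Ifit3 and Ifi207. The Ifit genes carry them in reverse complement, and the other 4 carry them as searched. A match describes the letters and is not a measured binding site.

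Antigen presentation genes were higher as well. Of 18 class I and peptide-loading genes, 14 rose and 0 fell (13 and 0 without silica array 2). H2-K1, a classical class I heavy chain, was at 2.84 and 2.60 on the silica and 1.02 and 1.12 on the saline arrays and rose 3.13-fold. B2m, the light chain shared by class I molecules, was at 2.30 and 2.29 on the silica and 1.05 and 1.00 on the saline arrays and rose 2.41-fold. The class I genes H2-T23 and H2-Q7 rose 3.39-fold and 3.02-fold, and since these genes are alike in sequence a probe may read more than 1 of them. Of 14 class II genes, 10 rose and 0 fell. H2-Ab1, a class II beta chain, was at 4.63 and 4.47 in silica and 3.44 and 3.69 in saline leukocytes and rose 1.98-fold. Its 2 probes rose unequally, by a log2 of 0.44 and 1.53. Cd74, the invariant chain, rose 1.80-fold. H2-Aa had 4.91 and 4.69 on the silica and 4.43 and 4.62 on the saline arrays and was not called. Of the proteasome, 11 of 28 genes rose and 0 fell, but 5 rose without silica array 2, 5 without saline array 1 and 7 without saline array 2. The interferon-inducible activator subunit Psme1 was at 0.83 and 0.87 on the silica and -0.01 and 0.27 on the saline arrays.

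**Figure D3:**
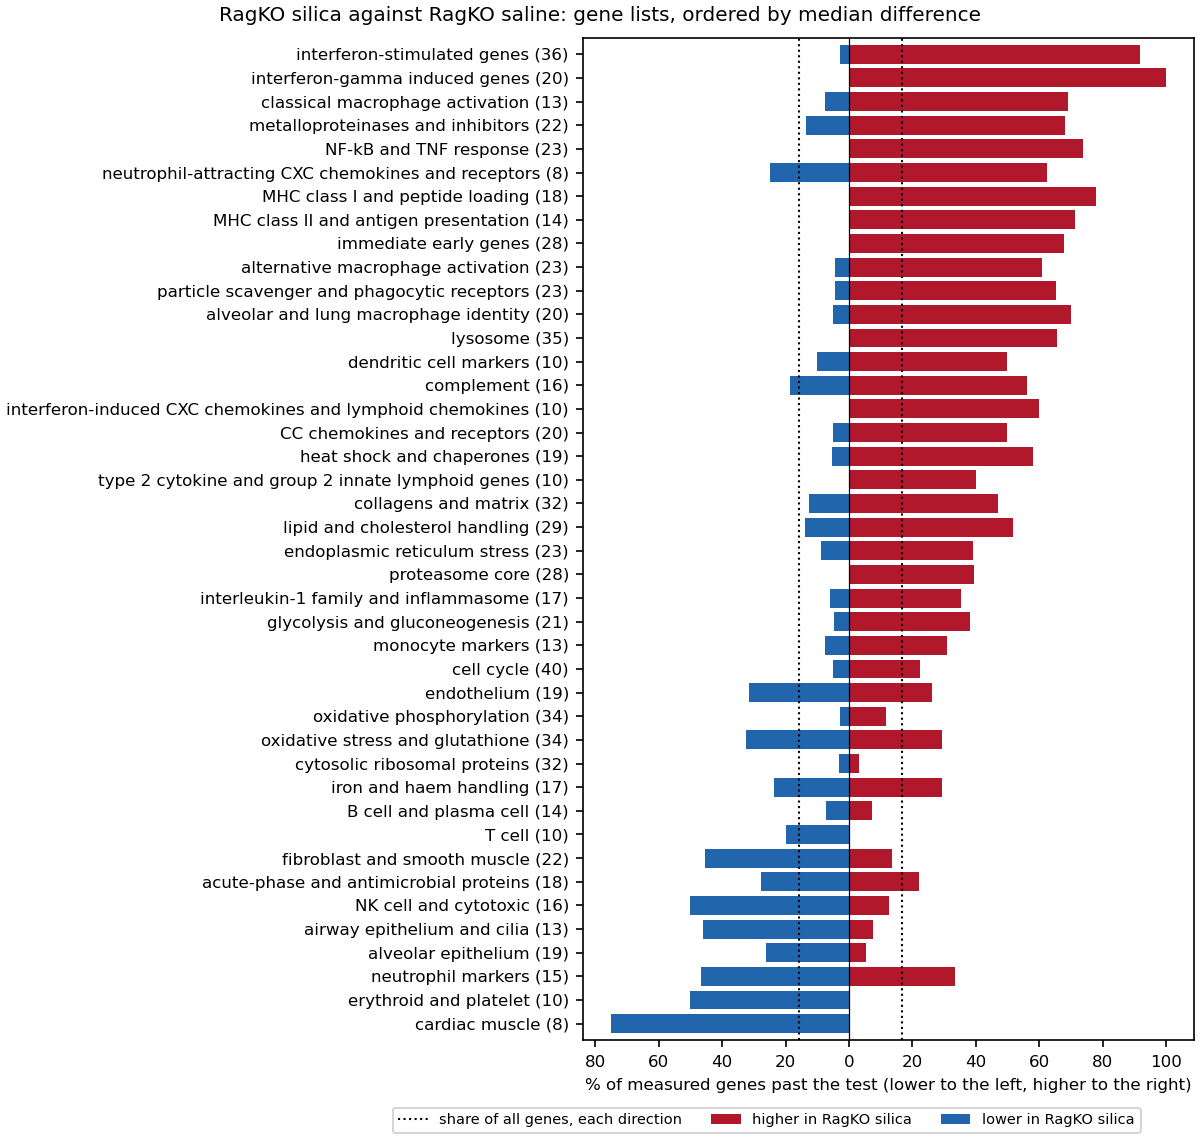
Percent of the measured genes of each list that were called higher (red, to the right) or lower (blue, to the left) in RagKO silica than in RagKO saline leukocytes, for lists of at least 8 measured genes (number in brackets), ordered by median difference. The dotted lines mark the 16.8% and 15.9% of all genes called higher and lower, and the interferon lists stand at the top with 33 of 36 and 20 of 20 genes higher.

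Among the cytokines of the silica response, Il1a was called and Il1b was not, and the contrast between these genes was not tested. Il1a, which encodes interleukin-1 alpha, was at 3.42 and 3.81 on the silica and 1.25 and 1.46 on the saline arrays and rose 4.80-fold (adjusted p = 2.61e-05). Il1b, which encodes interleukin-1 beta, was at 7.31 and 7.19 on the silica and 7.37 and 7.34 on the saline arrays and was not called, with a difference of -0.11 ± 0.11. The inflammasome sensor Nlrp3 was at 0.47 and 0.66 in silica and 0.16 and 0.19 in saline leukocytes and rose 1.31-fold, Casp1, the protease that cleaves interleukin-1 beta, rose 1.65-fold, and Gsdmd, the pore it opens, 1.47-fold. The Nlrp3 call was lost with the RagKO arrays alone (adjusted p = 0.0597) and without saline array 1, saline array 2 or silica array 2. The decoy receptor Il1r2 was 2.09-fold lower. Of 17 genes of this family, 6 rose and 1 fell.

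Of 20 CC chemokines and receptors, 10 rose and 1 fell, and 6 rose without saline array 1. The monocyte chemokine Ccl7 was at 1.82 and 2.61 on the silica and -0.66 and -0.49 on the saline arrays and rose 6.92-fold, and Ccl2 was at 1.54 and 1.92 on the silica and -0.30 and -0.51 on the saline arrays and rose 4.39-fold. Ccr7, the receptor that guides dendritic cells to lymph nodes, rose 2.19-fold. Among the neutrophil-attracting CXC chemokines, Cxcl5 was at 1.02 and 0.51 in silica and -1.83 and -1.77 in saline leukocytes and rose 5.92-fold. Cxcl1, Cxcl2 and Cxcl3 rose 2.56-fold, 2.53-fold and 2.38-fold. The platelet chemokine Ppbp was 1.90-fold lower. Cxcl10, induced by interferon, was at 4.63 and 4.20 on silica and 1.98 and 2.22 on saline arrays and rose 4.98-fold, and the epithelial Cxcl14 rose 2.11-fold.

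Markers of neutrophils moved in both directions, with 5 of 15 higher and 7 lower (4 lower without silica array 1). S100a8, a calcium-binding protein abundant in neutrophils, was at 6.51 and 6.40 on the silica and 8.10 and 7.73 on the saline arrays and was 2.75-fold lower. Stfa2l1, a stefin of neutrophils, was at 3.81 and 3.98 on the silica and 5.14 and 5.34 on the saline arrays and 2.53-fold lower. The rises included Chil3, which macrophages also make, and Lcn2, an iron-sequestering protein, at 3.81 and 3.71 in silica and 1.93 and 2.33 in saline leukocytes (3.09-fold). Mmp9, a gelatinase of neutrophils, had 0.62 and -0.04 on the silica and -0.23 and -0.29 on the saline arrays and was not called. In the type 2 list, 4 of 10 genes rose, but 1 rose without silica array 1 and 2 without either saline array. Il4 had 2.71 and 2.40 after silica and 2.86 and 2.94 after saline, not called, and Gata3, the factor that sets up group 2 innate lymphoid cells, was at -0.50 and -0.61 on the silica and -1.24 and -0.98 on the saline arrays and rose 1.47-fold, though not without saline array 1 (adjusted p = 0.0798) or silica array 1 (0.0654). Il7r, the interleukin-7 receptor, was at 3.49 and 3.57 on the silica arrays, but the saline arrays disagreed at 2.78 and 0.01, and its log2 difference of 2.13 was 3.52 without saline array 1 and 0.75 without saline array 2. The 4.39-fold rise was not called without saline array 2 (adjusted p = 0.165) or without either silica array (0.116 without silica array 1 and 0.109 without silica array 2).

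Signalling targets rose with few falls. Of 23 genes of the NF-kB and tumour necrosis factor response, 17 rose and 0 fell (17 and 0 without silica array 2). Nfkbie, an inhibitor induced by NF-kB, was at 1.59 and 1.18 on the silica and -0.01 and -0.20 on the saline arrays and rose 2.81-fold. Icam1, the adhesion molecule for leukocytes, rose 1.83-fold, Sod2, the mitochondrial superoxide dismutase, 1.99-fold, and Nfkb2 was at -0.14 and -0.88 on the silica and -0.90 and -1.12 on the saline arrays and not called. Of 28 immediate early genes, 19 rose and 0 fell. Nr4a1, a nuclear receptor induced by stimulation, was at 2.74 and 2.01 on the silica and 0.68 and 0.78 on the saline arrays and rose 3.13-fold, and Maff and Fosb rose 2.81-fold and 2.38-fold. Such genes also respond to tissue digestion, which all samples went through. Of 19 heat shock genes, 11 rose and 1 fell, with Hspa1b at 4.65 and 4.07 on silica and 3.29 and 3.30 on saline arrays.

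Acute-phase and complement genes moved in both directions. Over all genes, 16.8% were called higher and 15.9% lower. The acute-phase protein Saa1 was at 1.15 and 1.50 on the silica and -1.22 and -1.11 on the saline arrays and rose 5.61-fold, while Bpifa1, a secretion of airway epithelium, was at 4.64 and 4.63 on the silica and 5.48 and 5.87 on the saline arrays and 2.06-fold lower. Over the acute-phase and antimicrobial list, 4 of 18 rose and 5 fell, with 3 falls without silica array 1 or saline array 1 and 2 without saline array 2. Of 16 complement genes 9 rose and 3 fell. C1qa and C1qb, subunits of the macrophage-made C1q that opens the classical pathway, rose 2.88-fold and 3.12-fold. For C1qb the ratios were 3.53 and 3.27 in silica and 1.87 and 1.64 in saline leukocytes. C4b rose 2.97-fold.

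Proteases and matrix genes also changed. Of 22 proteases of matrix turnover and their inhibitors, 15 rose and 3 fell (15 and 3 without silica array 2). Plau, the urokinase that activates plasmin, was at 0.68 and 0.73 on the silica and -0.89 and -0.93 on the saline arrays and rose 3.06-fold. Timp2, an inhibitor of metalloproteinases, rose 2.58-fold. Of 32 collagen and matrix genes, 15 rose and 4 fell, but 8 rose without silica array 1 and 8 without saline array 1. Col3a1, fibrillar collagen III, was at -0.76 and -0.92 on the silica and -2.80 and -2.65 on the saline arrays and rose 3.70-fold, and Col14a1 rose 3.30-fold. Col1a1, fibrillar collagen I, was at -2.43 and -3.18 in silica and -3.62 and -3.68 in saline leukocytes and rose 1.79-fold. Lum, a small leucine-rich proteoglycan of the stroma, was at 3.93 and 3.88 on the silica and 4.92 and 4.91 on the saline arrays and 2.01-fold lower. Col5a1 had -0.91 and -1.05 on the silica and -0.96 and -3.03 on the saline arrays, with the saline arrays far apart, and was not called. Tgfb1, the growth factor most tied to fibrosis, rose 1.27-fold. The Col1a1 and Tgfb1 calls were each lost without saline array 1, saline array 2 or silica array 1. That of Tgfb1 was also lost with the RagKO arrays alone (adjusted p = 0.0814) and without either WT saline array.

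Fibroblast markers other than collagens were not called higher. Of 22 fibroblast and smooth muscle genes, 3 rose, all of them collagens, and 10 fell. Aspn, an extracellular proteoglycan, was at 0.93 and 1.32 on the silica and 2.74 and 2.82 on the saline arrays and was 3.16-fold lower. Tagln, an actin-binding protein of smooth muscle, was at 1.17 and 1.22 on the silica and 2.30 and 2.06 on the saline arrays and 1.97-fold lower. The list's per-array medians were 1.06 and 1.27 on the silica arrays, against 2.30 and 2.08 on the saline arrays. The part of carried-over stroma in the collagen values was not tested.

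The 12 largest falls included enzymes of detoxification. Pon1, the paraoxonase that hydrolyses lipid peroxides, was at 3.83 and 3.96 on the silica and 6.10 and 6.35 on the saline arrays and was 5.01-fold lower (adjusted p = 0.000241). Cyp2a5, a cytochrome P450, was at 3.36 and 2.89 on the silica and 4.96 and 5.40 on the saline arrays and 4.16-fold lower. Gsta3, a glutathione transferase, was at 1.75 and 1.45 in silica and 3.70 and 3.64 in saline leukocytes and 4.20-fold lower. Both silica arrays were below both saline arrays in each of these genes. The glutathione peroxidase Gpx2 was 3.76-fold lower, the quinone reductase Nqo1 3.52-fold lower, Gsta1 3.43-fold lower, and the retinal dehydrogenase Aldh1a1 3.52-fold lower. Gsta1 and Gsta3 belong to a family of similar sequences, which a probe may not tell apart.

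The other large falls were Myl7, a light chain of atrial heart muscle, at 1.66 and 1.74 on the silica and 4.00 and 3.96 on the saline arrays (4.84-fold lower, adjusted p = 5.23e-06), and Esm1, a proteoglycan secreted by endothelium, at 0.39 and 0.72 on the silica and 2.65 and 2.17 on the saline arrays (3.61-fold lower). Cldn10, a claudin of epithelial tight junctions, was at 2.01 and 2.04 on the silica and 3.89 and 3.76 on the saline arrays (3.50-fold lower). Bex2 was 3.58-fold lower, and Gpm6a, a membrane glycoprotein, 3.36-fold lower.

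Over 34 genes of oxidative stress and glutathione, 10 rose and 11 fell, with a median of 0.00. The rises were led by Cyba, a subunit of the phagocyte oxidase, at 1.70 and 1.65 on silica and -0.04 and 0.09 on saline arrays (3.13-fold). Hmox1, haem oxygenase 1, was at 0.66 and 0.73 on the silica and -0.02 and 0.00 on the saline arrays and rose 1.64-fold. Nfe2l2, which encodes the regulator NRF2, had 0.96 and 0.86 on the silica and 0.69 and 0.53 on the saline arrays. It was not called, and its 2 probes had log2 differences of 0.03 and 0.57. The antioxidant response element core TGACNNNGC, searched in the same promoter windows on both strands, was in 7 of 29 genes of this list (24.1%), against 16.9% of all tested genes, 23.3% of those called at least 2-fold higher and 14.9% of those called at least 2-fold lower. It shared no base with the interferon motif in any window. In iron handling, Ftl1, the ferritin light chain, rose 1.84-fold, and Tfrc, the transferrin receptor, was at -0.08 and -0.21 in silica and 1.01 and 0.99 in saline leukocytes and 2.21-fold lower. The glycolytic list had 8 of 21 genes higher, Fbp1 among them, and 1 lower (5 higher without silica array 1 or saline array 1), with the hexokinase Hk3 up 1.89-fold and Pfkp, a phosphofructokinase, up 1.79-fold. Gapdh had -0.21 and -0.41 on the silica and -0.48 and -0.67 on the saline arrays and was not called.

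Most called markers on the lists of epithelium, heart muscle and blood cells were lower. Clca1 was the gene that rose on the airway list, and Slc26a4, which is not on that list, rose as well. The shares called over all genes were 16.8% higher and 15.9% lower. The alveolar list had 31.6% of its genes called in either direction, against 32.7% of all genes. In alveolar epithelium 5 of 19 genes fell and 1 rose, with a median of -0.33, and 3 fell without silica array 2 and 2 without saline array 1. Krt18, an epithelial keratin, was at -1.94 and -2.03 on the silica and -1.42 and -1.35 on the saline arrays and 1.52-fold lower. The surfactant protein Sftpa1 was at 5.52 and 5.38 on the silica and 6.08 and 5.86 on the saline arrays and 1.44-fold lower, though not called without saline array 1 (adjusted p = 0.0542) or after quantile normalization (0.197). In airway epithelium 6 of 13 genes fell, and the club cell secretoglobins Scgb1a1 and Scgb3a1 were 1.95-fold and 2.38-fold lower. In endothelium 5 of 19 genes rose and 6 fell, but 1 fell without silica array 1 or saline array 2. Emcn, a sialomucin of capillaries and veins, was at 4.63 and 4.63 in silica and 5.66 and 5.72 in saline leukocytes and 2.09-fold lower. Plvap, a protein of endothelial fenestrae, rose 2.40-fold. The largest rise of the endothelium list was that of Car4, which is also on the list of lung macrophage identity. Of 8 heart muscle genes 6 fell and 0 rose, and of 10 erythroid and platelet genes 5 fell (3 without saline array 1) and 0 rose. Actc1, the cardiac actin, was 2.16-fold lower and Hbb-bt, a beta globin, 1.41-fold lower. The part of carried-over tissue in the other results was not tested.

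NK cell genes were still measured after the depletion and more were called lower than higher with silica. Of 16 NK and cytotoxic genes 2 rose and 8 fell (3 and 6 without silica array 2). The list's per-array medians were 1.55 and 1.20 on the silica arrays, against 1.69 and 1.83 on the saline arrays. Klrb1c was 1.88-fold lower (adjusted p = 0.00245). Klrc1, an inhibitory receptor, was at 1.10 and 0.38 on the silica and 1.82 and 2.01 on the saline arrays and 2.25-fold lower, and Klra7, a Ly49 receptor, was at 0.93 and 0.46 on the silica and 1.75 and 1.89 on the saline arrays and 2.18-fold lower. In both, silica array 2 was the lowest. T cell genes gave 2 falls and 0 rises among 10, and B and plasma cell genes 1 rise and 1 fall among 14. Over all genes, 16.8% were called higher and 15.9% lower. Of 5 mast cell and basophil genes 1 rose and 2 fell. The falls included the mast cell chymase Cma1, at 1.78 and 1.43 in silica and 2.66 and 2.37 in saline leukocytes.

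**Figure D4:**
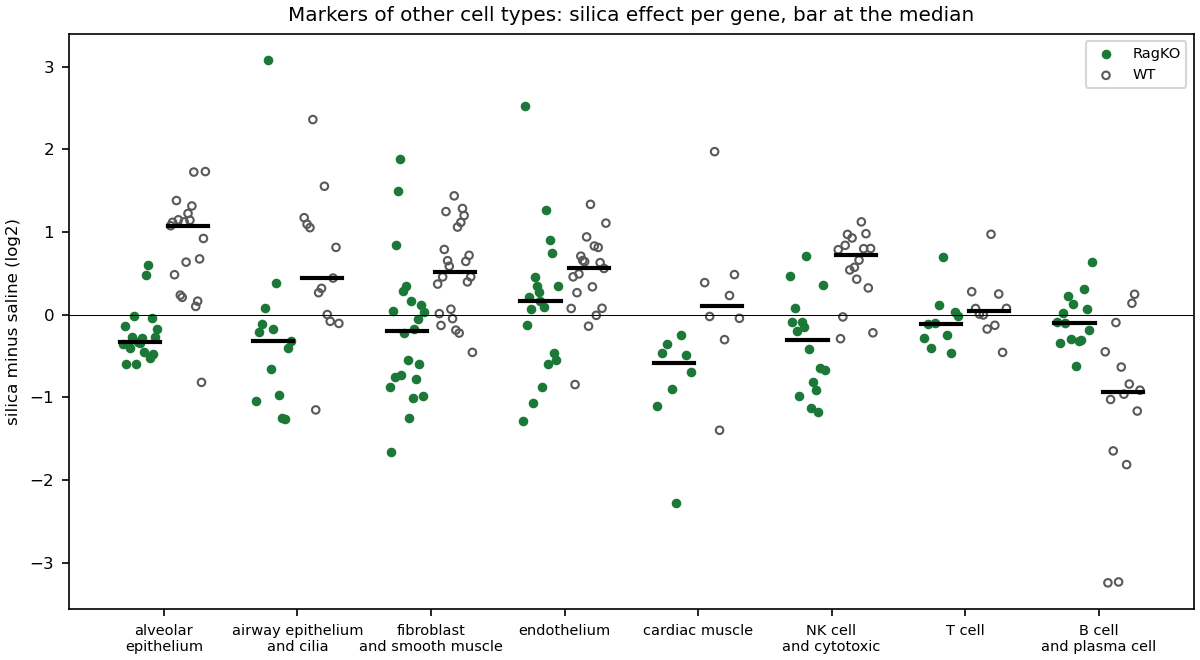
Silica minus saline difference (log2) of each marker gene of 8 other cell types in RagKO (filled green) and WT (open) leukocytes, with a bar at each list's median. The RagKO medians are below 0 for all lists but endothelium, and WT medians are above 0 for all lists but B and plasma cells.

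In the lists of cell division, ribosomes and respiration most genes were not called, as over all genes. The called share was 27.5% in cell division, 6.25% in ribosomal proteins and 14.7% in respiration, against 32.7% of all genes. Of 40 cell cycle genes 9 rose and 2 fell, with a median of 0.17 (6 and 1 without silica array 2). Mki67, the proliferation marker, was at -1.55 and -1.65 on the silica and -2.33 and -2.15 on the saline arrays and rose 1.56-fold, and Plk1, a mitotic kinase, was 1.57-fold lower. Of 32 ribosomal protein genes 1 rose and 1 fell, and of 34 respiratory chain genes 4 rose and 1 fell. Without saline array 2, 3 ribosomal protein genes fell, and 1 respiratory chain gene rose without silica array 2 or saline array 1. Of 23 genes of endoplasmic reticulum stress 9 rose (5 without saline array 1) and 2 fell, and of 10 dendritic cell markers 5 rose and 1 fell. Irf8, a transcription factor of dendritic cells and monocytes, was at 2.35 and 1.65 on the silica and 0.67 and 0.85 on the saline arrays and rose 2.36-fold.

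The silica effect in RagKO leukocytes was set against that in WT leukocytes, with which it shares no array. The difference of the 2 effects, RagKO minus WT, was called for 2697 of 11597 genes (23.3%), 1274 positive (11%) and 1423 negative (12.3%), and it reached 2-fold for 958 (8.26%), 404 positive (3.48%) and 554 negative (4.78%). In WT, 2283 genes (19.7%) were called for silica, 1331 higher (11.5%) and 952 lower (8.21%). Genes called in both numbered 1012, which is 26.7% of the RagKO and 44.3% of the WT calls. Of these 539 moved in the same direction and 473 in opposite directions, and the difference was called for all 473. Of the 473, 141 were higher in RagKO and lower in WT, and 332 were lower in RagKO and higher in WT. Across the 11597 genes, which are not independent, the effects had a Pearson r of 0.07 and a Spearman rho of 0.11.

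The 3 most positive differences among the named genes were of genes on the alternative activation list. That list was chosen with earlier results of these data known, so this placing is not a test of it. For Fbp1 the RagKO arrays were at 3.56 and 5.02 with silica and -0.19 and -0.18 with saline, against 0.37 and 0.97 in WT silica and 4.20 and 4.13 in WT saline. The effects were 4.47 in RagKO and -3.49 in WT, and differed by 7.96 ± 0.52 (adjusted p = 4.42e-05). The WT saline values were thus near the RagKO silica values, and the WT silica values nearer the RagKO saline values. For Arg1 the WT arrays were at 1.08 and 0.65 with silica and 3.41 and 3.45 with saline, and the effects differed by 5.72 ± 0.45. Its WT saline values were likewise nearer the RagKO silica than the RagKO saline values, and its WT silica values near the RagKO saline values. For Ccl24 they differed by 5.65 ± 0.78, with -2.49 and -1.67 in WT silica and 1.40 and 1.41 in WT saline, and only RagKO silica array 2 was near the WT saline values. For Clca1 and Chil3 the differences were 4.23 ± 0.16 and 3.39 ± 0.24. Without RagKO silica array 2 the differences were 7.23 for Fbp1, 5.09 for Arg1 and 4.51 for Ccl24, and without silica array 1 they were 8.69, 6.35 and 6.79. An exchange of silica and saline labels in one genotype was not tested. Of the genes called in both genotypes as labelled, 539 moved in the same direction, Mmp12, Cxcl1 and Egr1 among them. The other 473 moved in opposite directions, Fbp1, Arg1, Clca1, Chil3 and Chil4 among them. Over the alternative activation list, the difference was positive and called for 14 of 23 genes and negative for 1. WT counts were 4 higher and 9 lower.

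**Figure D5:**
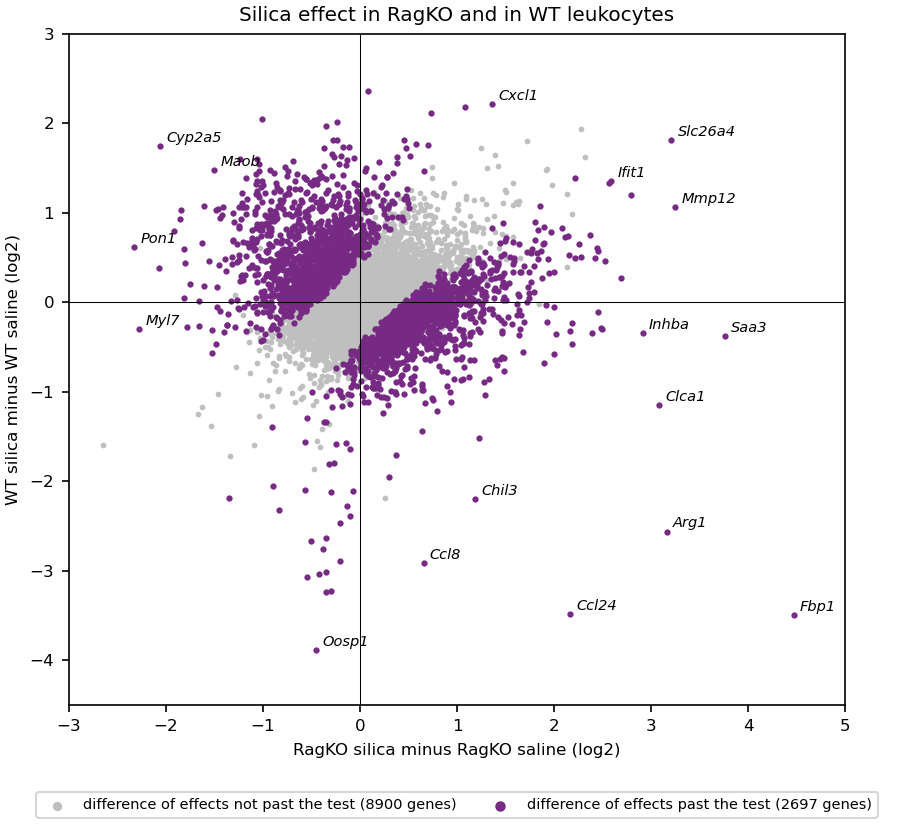
Silica effect (log2, silica minus saline) of each gene in RagKO leukocytes (horizontal axis) against that in WT leukocytes (vertical axis), with the 2697 genes whose difference of effects was called in purple. Fbp1, Arg1 and Ccl24 lie at the lower right, higher in RagKO and lower in WT, and Cyp2a5 and Maob at the upper left.

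Interferon genes differed too, with a called positive difference in 28 of 36 interferon-stimulated genes and 16 of 20 induced by interferon-gamma, and 0 called negative in either. WT called 10 of the first list higher and 1 lower. For Isg15 the effects were 1.73 in RagKO and 0.00 in WT, and differed by 1.73 ± 0.28 (adjusted p = 0.00209). Ifit1 rose in both, by 2.59 in RagKO and 1.36 in WT, and the effects differed by 1.23 ± 0.29, a call lost without WT saline array 1 (adjusted p = 0.0522) or RagKO saline array 1 (0.0556). In class II genes the difference was positive in 11 of 14, and in the cell cycle in 21 of 40. WT called 18 of these 40 cell cycle genes lower. Saa3 rose by 3.76 in RagKO and had -0.38 in WT, a difference of 4.14 ± 0.51, which was 4.84 without WT silica array 1 and 3.45 without WT silica array 2. Ccl8, a monocyte chemokine, and Oosp1, first known as an oocyte-secreted protein, differed by 3.57 ± 0.31 and 3.44 ± 0.17, with WT effects of -2.91 and -3.89. Oosp1 was called lower in RagKO as well. Its RagKO effect was -0.46 without silica array 1 and -0.44 without silica array 2.

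Called negative differences included those of the following genes and lists. For Cyp2a5 the log2 effects were -2.06 in RagKO and 1.75 in WT, and they differed by -3.80 ± 0.31 (adjusted p = 8.01e-05). The monoamine oxidase Maob had 4.04 and 3.91 in RagKO silica and 5.37 and 5.58 in RagKO saline, against 3.98 and 4.20 in WT silica and 2.71 and 2.51 in WT saline, and the effects differed by -2.98 ± 0.18. The difference was negative for Pon1, Mal2, Bex2, Cytl1, Esm1 and Gpx2 as well, between -3.05 and -2.70. In alveolar epithelium it was negative and called in 15 of 19 genes and positive in 0, with WT calling 13 higher. In NK genes it was negative in 9 of 16 and positive in 0, with WT calling 9 higher and 0 lower. Cxcl1 and the immediate early gene Egr1 rose in both groups, and less in RagKO, with differences of -0.86 ± 0.27 and -1.09 ± 0.28. Both calls were lost when some single arrays were left out. The difference was -0.60 for Cxcl1 without RagKO saline array 1 and -0.95 for Egr1 without RagKO saline array 2. Both calls were also lost after scaling to one median absolute deviation (adjusted p = 0.146 for Cxcl1 and 0.0557 for Egr1). That of Cxcl1 was lost after quantile normalization too (0.086). Il6 was 0.13 in RagKO and 1.22 in WT, and the effects differed by -1.09 ± 0.22.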

How the data were processed

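Leukocyte RNA (Cy5) was hybridised with a universal mouse reference RNA (Cy3) on two-colour Agilent arrays, per the labels. The authors' deposited values are log ratios per probe, read here as log10 of Cy5 over Cy3. The base was inferred, since Ms4a1 would differ 104.1-fold between WT and RagKO saline as log10 and 4.05-fold as log2. Not given in the sources used here are background correction, normalization and filters, so signal over background is unknown.

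Values were converted to log2. Of 16251 probes, 14716 had values on all 8 arrays. One gene symbol was available for 14488 probes, several for 10 and none for 1753. Probes of a gene were averaged, which gave 11597 genes, 1478 of them with more than 1 probe. Column medians spanned 0.07 on the log2 scale, and no further normalization was applied. Replicate arrays correlated at r = 0.978 in both RagKO groups, and no 2 arrays held the same values.

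A model with 4 group means over 8 arrays was fitted with limma 3.58.1 in R 4.3.3, with Benjamini-Hochberg adjustment over all genes and a threshold of 0.05. All adjusted p-values come from this fit or its alternatives. The difference of silica effects was a contrast of the same fit. In simulated data, 100 of 11597 genes were shifted by each size, and noise was drawn independently for each gene. The RagKO comparison recovered 88% of genes shifted by a log2 of 1 and 98% of those shifted by a log2 of 2, with 4.6% false calls. Far fewer genes were changed than were called in the real data, and effects shared between genes were not simulated. The false-call shares therefore hold for that setting only. The difference of effects recovered 61% and 96%, with 8.2% false calls, which is above the threshold. Genes named are the 12 largest rises and 12 largest falls without overlap between groups, up to 4 called and 2 not called members of each list, a set of fixed genes, and the 8 most positive and 8 most negative differences. Predicted names and sex-linked transcripts were passed over in the largest changes. The members and lists were chosen with earlier results of these data known. Alternatives covered normalization, the arrays and the replicate number in the fit, variance moderation, probe choice, missing values and the call rule. Titanium dioxide samples mentioned in the protocol were not analysed here. Nothing in the labels gives batches.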

Additional observations from a re-analysis of the deposited data

Results flagged for a closer look

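The silica effect in RagKO leukocytes differed from that in WT leukocytes, by a test of the difference itself (limma, adjusted p under 0.05), for 2697 of 11597 genes and for the genes below. Values are log2 differences, RagKO effect minus WT effect.

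Silica was called higher in RagKO and lower in WT for Fbp1 7.96, Arg1 5.72, Ccl24 5.65, Clca1 4.23, Ccl8 3.57, Chil3 3.39 and Chil4 2.75. The RagKO call of Ccl8 was lost under 9 settings (adjusted p = 0.0503 to 0.237), among them quantile normalization (0.155) and leaving out RagKO saline array 1 (0.237), saline array 2 (0.0634) or silica array 2 (0.225). The difference was also positive for Saa3 4.14, Oosp1 3.44, Inhba 3.26, Ctsk 2.42, Mmp12 2.19, Car4 2.06, Marco 1.77, Isg15 1.73, Il1a 1.62, Ccl7 1.59, Slc26a4 1.40, Cxcl5 1.24, Ifit1 1.23 and Msr1 1.15. Oosp1 was called lower with silica in RagKO too, so its positive difference is a smaller fall than in WT. The Ccl7 difference was not called without WT saline array 1 (adjusted p = 0.0578), WT silica array 2 (0.0504), RagKO saline array 1 (0.0765) or RagKO silica array 2 (0.0565), nor with robust moderation (0.0504).

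Silica was called lower in RagKO and higher in WT for Cyp2a5 -3.80, Mal2 -3.05, Maob -2.98, Bex2 -2.87, Cytl1 -2.84, Esm1 -2.78 and Gpx2 -2.70. The RagKO call of Mal2 was lost without any one of the 4 RagKO arrays (adjusted p = 0.0602 to 0.115) and with robust moderation (0.0508). The difference was also negative for Pon1 -2.94, Gsta3 -2.45, Aldh1a1 -2.41, Cldn10 -2.24, Myl7 -1.97, Gpm6a -1.96, Nqo1 -1.87, Gsta1 -1.51, Egr1 -1.09 and Cxcl1 -0.86. Those of Egr1 and Cxcl1 were not called after scaling to one median absolute deviation or without some single arrays.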

How the results depend on the processing

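With at least 2-fold asked beside adjusted p under 0.05, calls numbered 515 in RagKO (360 higher and 155 lower) and 958 for the difference from WT (404 positive and 554 negative). Leaving out 1 array at a time gave 2380 to 3842 RagKO calls (1248 to 1953 higher, 1043 to 1889 lower) and 1647 to 2485 for the difference (755 to 1239 positive, 890 to 1313 negative). The lowest RagKO counts came without RagKO saline array 1 (2380) and silica array 1 (2393), and the lowest for the difference without WT saline array 1 (1649) and 2 (1647). These settings fit fewer arrays, and the lone array of a group is assumed to vary like the other groups. The other settings, which were median centring, quantile normalization, scaling to one median absolute deviation, the RagKO arrays alone, robust or trended moderation, the probe with the highest mean and values on at least 6 arrays, kept the counts within 1.5 times. Among named genes, 12 values of 9 genes turned their sign (Cd163, Il6, Acod1, Ear6, Ifi27, Col5a1, Xist, and Il1b and Col1a1 for the difference), 0 of them called in either fit. List medians near 0 also turned when 1 array was left out, for iron handling, oxidative stress, T cells and ribosomal proteins. Between arrays of equal replicate number, the correlations of their deviations ran from -0.07 to 0.11. With 2 arrays a group and no batches in the labels, these cannot show whether the samples were paired. The replicate block gave 3795 RagKO calls (1946 higher and 1849 lower), 3645 of them shared, and 2669 for the difference (1259 positive and 1410 negative). Without RagKO silica array 2, 229 of 253 named genes kept their side of the threshold, 13 passed it newly and 11 no longer did. The inferred log base scales all differences alike. The number of arrays and the unknown signal over background limit what small differences can show.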

Other observations

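Gene families grouped by symbol after the values were seen are reported here with no test. Over all genes, 16.8% were called higher and 15.9% lower. Of 16 measured glutathione transferase genes (Gst), which conjugate glutathione to reactive compounds, 14 were called lower in RagKO silica than in RagKO saline leukocytes and 0 higher. Their median difference was -0.82 in RagKO and 0.28 in WT. Of 26 cytochrome P450 genes (Cyp), 9 were called lower and 1, Cyp7b1, higher. Of 15 aldehyde dehydrogenase genes (Aldh) 5 were called lower and 0 higher, and of 5 carboxylesterase genes (Ces) 3 were lower and 0 higher. All 7 genes with Oas symbols and all 3 Ifit genes were called higher, as were 7 of 8 guanylate-binding protein genes (Gbp). Of 12 killer cell lectin-like receptor genes (Klr), 9 were called lower and 0 higher, with a median of -0.69 in RagKO and 0.79 in WT. Of 190 solute carriers (Slc) 39 were called higher and 33 lower, near the shares over all genes. Members of a family are alike in sequence, so their probes may share signal and are not independent.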
